A study of Mus musculus with 20 samples.

Results

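The 91 genes described here encode nuclear subunits and named assembly factors of mitochondrial respiratory complexes I to V. They were chosen by name, as protein-coding genes whose mouse symbols start with Nduf, Sdha to Sdhd, Uqcr, Cox4i, Cox5, Cox6, Cox7, Cox8 or Atp5, and by a minimum of 10 counts in at least 5 of the 20 libraries. They are 91 of the 49671 genes in the count tables. The name rule matched 93 protein-coding genes, and Cox7b2 and Cox8c failed the count minimum. By complex there were 44 genes for complex I, 4 for complex II, 8 for complex III, 18 for complex IV and 17 for complex V. Ndufa4 and Ndufa4l2 carry complex I names and were placed with complex IV, where the Ndufa4 protein is found. All 91 passed the expression filter and were tested among 18427 genes.

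RNA came from 1 frozen hippocampus per animal. The mice were wild-type males aged 10 to 12 weeks, 5 in each of 4 groups. Control mice carried no tumour and received isotype-matched control antibodies. ICI mice carried no tumour and received immune checkpoint inhibitors, which are antibodies that block brakes on T cells: anti-CTLA-4 at 1 mg per dose 3 times a week and anti-PD-1 at 200 µg per dose 2 times a week. Melanoma mice had 500000 cells of the syngeneic mouse melanoma line D4M-3A.UV2 injected into the skin on both sides and received the isotype antibodies. Melanoma plus ICI mice had the same tumour cells, left 1 week to engraft, and then both inhibitors, with 3 weeks of treatment stated for this group. Tissue was collected 72 hours after treatment ended. The labels name no strain, and the tumour grew in the skin, so the hippocampus is a distant organ in this model.

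The respiratory chain sits in the inner mitochondrial membrane. Complex I takes electrons from NADH and complex II takes them from succinate. Both pass them through ubiquinone to complex III, and cytochrome c carries them on to complex IV, which reduces oxygen. Complexes I, III and IV pump protons, and complex V, the ATP synthase, uses the resulting gradient to make ATP. Neurons depend on this pathway for the ion pumping that synaptic activity demands. All subunits of complex II are nuclear-encoded, whereas the other complexes also hold subunits encoded in the mitochondrial genome, so their assembly draws on both genomes.

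Libraries held 21990624 to 25735149 counts. The genes that define hippocampal neurons were present in every library: the lowest values were 1518 counts per 1000000 counts (CPM) for the synaptic gene Snap25, 21.9 CPM for the dentate gyrus gene Prox1 and 67.6 CPM for the CA1 gene Wfs1. Other subfield markers varied many-fold between libraries: Fibcd1 of CA1 ran from 10.3 to 193 CPM, Iyd of CA3 from 0.194 to 8.67 CPM and Lct of the dentate gyrus from 1.56 to 127 CPM. The part of this variation in the results was not tested. Markers of neighbouring tissue varied between libraries within every group, and the mean log2 CPM of 8 choroid plexus genes ran from 0.33 to 6.74. The mean of 6 striatum genes reached 6.87 in melanoma and 5.83 in melanoma plus ICI, but 3.52 in control and 3.64 in ICI. The highest means in melanoma plus ICI were 5.24 for dentate gyrus and 4.34 for CA3 genes, against at least 6.35 and 5.08 in each other group. The group ranges overlapped in these lists, and the part of these differences in the results was not tested. Control replicate 4 and melanoma plus ICI replicate 1 stood apart from the other 18 libraries in the respiratory chain genes, so values without them are given beside the contrasts. The labels give no extraction or sequencing date, so a processing batch could not be examined. In bulk tissue, fewer cells of a type and less RNA per cell cannot be told apart.

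Transcript levels were compared between genes as transcripts per 1000000 transcripts (TPM), computed from the counts and the deposited gene length, and are given as the median over the 20 libraries. The most abundant transcripts belonged to complexes IV and V. Cox8a, the common form of a small complex IV subunit, stood at 1453 TPM, and Cox6a1, the common form of another, at 1048 TPM. Atp5a1 and Atp5b, which encode the alpha and beta subunits that form the catalytic head of the ATP synthase, stood at 943 and 851 TPM. Cox4i1, a regulatory subunit of complex IV, stood at 942 TPM. The median gene stood at 131 TPM in complex I, 146 TPM in complex II, 222 TPM in complex III, 239 TPM in complex IV and 205 TPM in complex V. Complex IV had the widest range because its list holds 6 isoform genes at or under 15.7 TPM, the lowest of them Cox4i2 at 3.19 TPM.

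**Figure D1:**
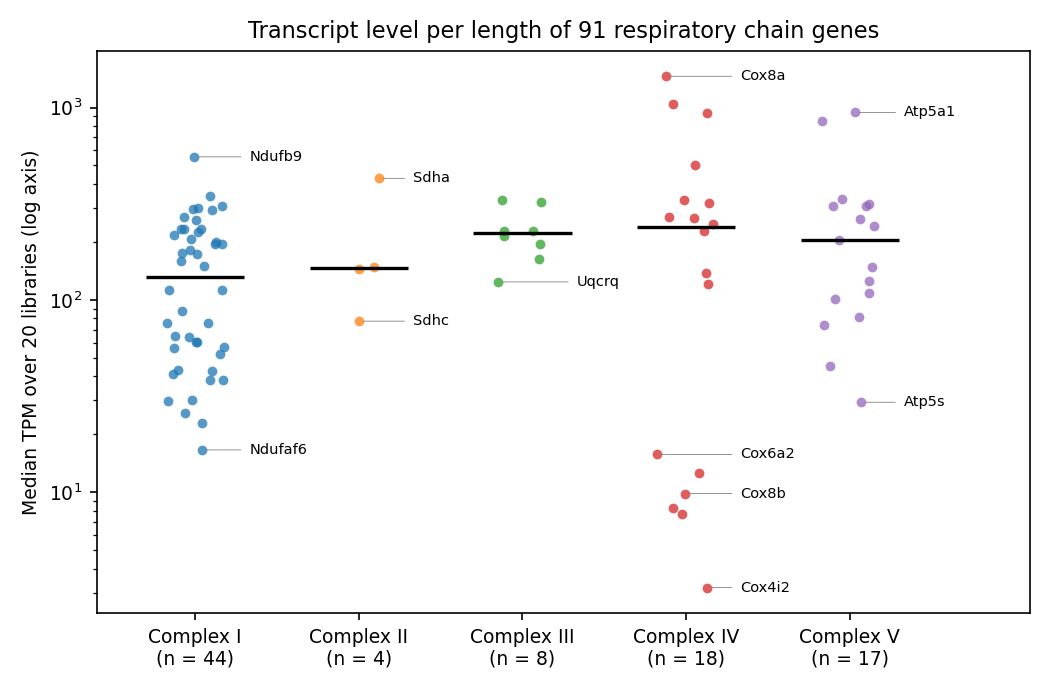
Transcript level per length for each of the 91 genes, as the median TPM over 20 libraries on a log axis, by complex; black bars are medians over the genes of a complex. Complex IV spans from Cox4i2 at 3.19 TPM to Cox8a at 1453 TPM, while complex III lies between 124 and 330 TPM.

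Within complex I, the median level per length of core and of accessory subunits was above that of assembly factors, with overlap between single genes. The 7 core subunits, which carry the flavin and iron-sulfur clusters that move electrons, had a median of 159 TPM. Among them Ndufv1, which binds NADH, stood at 232 TPM, Ndufs8 at 199 TPM, Ndufv2 at 159 TPM, Ndufs7 at 149 TPM, Ndufs3 at 113.2 TPM and Ndufs1 at 60.2 TPM. The 29 accessory subunits had a median of 181 TPM, from Ndufab1, an acyl carrier protein, at 25.9 TPM to Ndufb9 at 554 TPM. Ndufs4, an accessory subunit whose loss causes mitochondrial disease, stood at 75.9 TPM. The 8 assembly factors, which help build the complex and then leave it, had a median of 39.7 TPM and ran from 16.6 TPM for Ndufaf6 to 60.3 TPM for Ndufaf2. These levels and the overlap depend on the deposited length. With the length of the main transcript in its place, core subunits stood at 143 TPM or more and assembly factors at 53.3 TPM or less. Accessory subunits then started at 30.1 TPM and still overlapped the assembly factors.

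The subunits of complex II were unequal per length. Sdha, the flavoprotein that oxidises succinate, stood at 428 TPM. Its iron-sulfur partner Sdhb stood at 144 TPM, and the membrane anchors Sdhc and Sdhd at 77.5 and 148 TPM. In complex III, Uqcrc1 and Uqcrc2, the core proteins, stood at 163 and 215 TPM, and Uqcrfs1, the Rieske iron-sulfur protein, at 196 TPM. The highest and lowest in complex III were Uqcr10 at 330 TPM and Uqcrq at 124 TPM. In complex IV the structural subunits Cox5a and Cox5b stood at 121 and 332 TPM and Ndufa4 at 319 TPM. In complex V, Atp5c1, the rotating gamma subunit, stood at 262 TPM, Atp5o, which ties the stator stalk to the head, at 205 TPM, and Atp5s, a regulatory factor, was lowest at 29.3 TPM. These ratios depend on the length used. With the length of the main transcript in place of the deposited length, the ratio of the median of complex V to that of complex I was 2.12, and that of complex II to complex I was 1.00.

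For subunits 4, 6a, 6b and 8 of complex IV and for Ndufa4, 1 form made up nearly all transcripts. Cox4i1 made up 99.6% of subunit 4 transcripts by TPM and Cox4i2, a form linked to low oxygen, 0.351%. Cox6a1 made up 98.4% and the heart-type Cox6a2 1.55%. Cox6b1 made up 97.5% and the testis-type Cox6b2 2.48%. Cox8a made up 99.3% and the heart-type Cox8b 0.701%. Ndufa4 made up 97.7% and its hypoxia-inducible paralog Ndufa4l2 2.30%. For subunit 7a, Cox7a2 and Cox7a2l, a factor that helps join complexes III and IV into supercomplexes, stood at 49.4% and 49.3% by the deposited length and at 56.6% and 42.0% by the main transcript length, and the heart-type Cox7a1 made up 1.31%. By the main transcript length Cox4i2 made up 0.186%, Cox6b2 4.04% and Ndufa4l2 1.06%. All shares here are medians over 20 libraries.

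Subunit c, the ring of the ATP synthase, is encoded by 3 genes that differ in their targeting peptides and give the same mature protein. Atp5g3 gave 62.4% of these transcripts, Atp5g2 20.4% and Atp5g1 17.2%. The order of the lower pair rests on a small gap and on length, since Atp5g1 fell to 7.12% when the main transcript's length was used. Without a tumour, Atp5g3 averaged 62.7% ± 1.88 in control and 61.6% ± 1.35 in ICI mice, and with one, 62.3% ± 1.21 after isotype antibodies and 63.4% ± 1.57 after ICI (SD, n = 5 each).

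No respiratory chain gene passed the test in any comparison. With edgeR's quasi-likelihood test and Benjamini-Hochberg adjustment over 18427 genes, 0 of 91 genes had an adjusted p under 0.05 in each of the 5 pairwise contrasts and in the interaction, where 0% of all genes passed as well. At an unadjusted p under 0.05 ICI minus control held 0 higher and 1 lower member, against 2.08% and 3.15% of all genes. Melanoma minus control held 0 and 0, against 2.7% and 2.41%, and melanoma plus ICI minus control 0 and 0, against 1.1% and 1.28%. Melanoma plus ICI held 2 higher and 0 lower members against melanoma, where 2.63% and 2.87% of all genes were so, and 0 and 0 against ICI, where 4.12% and 4.51% were. The interaction held 10 higher and 0 lower members, against 5.99% and 4.28% of all genes. Those 10 were Sdhc, Ndufa1, Cox7a1, Ndufb5, Atp5k, Atp5j, Uqcrb, Ndufs8, Ndufaf1 and Ndufaf6. These unadjusted counts moved when 1 library was left out. Over the 20 such fits the lower members numbered 0 to 10 for ICI minus control and 0 to 12 for melanoma minus control, both highest without control replicate 2, where 5.08% and 3.76% of all genes were so. The higher members numbered 0 to 8 for melanoma plus ICI minus control, 0 to 17 against melanoma and 0 to 12 against ICI. These 3 were highest without control replicate 4, where 2.7%, 4.61% and 6.02% of all genes were so. In the interaction they numbered 4 to 33, highest without control replicate 2, where 8.37% of all genes were so, and 16 of the 20 libraries moved that count by over 1.5 times when left out. DESeq2 and limma voom with quality weights also called 0 of the 91 genes in each contrast. DESeq2 called 0.00543% of all genes with an adjusted p in ICI minus control, 0.0502% in melanoma minus control, 0.0488% in melanoma plus ICI minus ICI, 0.255% in the interaction and 0% in the others. Limma voom called 0.00543% in melanoma minus control, 0.136% in melanoma plus ICI minus melanoma, 0.103% in the interaction and 0% in the others. The smallest adjusted p of any member by edgeR was 0.484, in the interaction.

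The log2 fold changes of the members mostly had the same sign. For ICI minus control, 88 of 91 genes had a log2 fold change below 0 and 3 above it, against 52% and 48% of all genes, and the median was -0.20 against -0.01 over all genes. For melanoma minus control, 90 of 91 lay below 0 and 1 above, against 52% and 48% of all genes, with a median of -0.20. For melanoma plus ICI minus control, 74 of 91 lay below 0 and 17 above, against 49.3% and 50.7%, with a median of -0.05. These 3 comparisons share the control libraries. Against melanoma alone, all 91 genes lay above 0 in melanoma plus ICI, against 53.5% of all genes above and 46.5% below, with a median of 0.15. Against ICI alone, 89 of 91 lay above 0 and 2 below, against 55% and 45%, with a median of 0.16, and these comparisons share the melanoma plus ICI libraries. In the interaction, the ICI difference with a tumour minus that without, 91 of 91 lay above 0, against 52.8% of all genes above and 47.2% below, with a median of 0.37. The members vary together between libraries, so these counts are not 91 separate observations. The interaction median was 0.37 for complex I, 0.31 for complex II, 0.37 for complex III, 0.42 for complex IV and 0.37 for complex V. Without control replicate 4 and melanoma plus ICI replicate 1 the same medians were 0.047, 0.067, 0.070, 0.083 and 0.087.

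The size of these medians depended on 2 libraries. Without control replicate 4 and melanoma plus ICI replicate 1, the median was -0.01 for ICI minus control with 56 of 91 genes below 0, against 48.1% of all genes, and -0.01 for melanoma minus control with 54 below 0, against 50.3%. The median was 0.03 for melanoma plus ICI minus control, 0.05 against melanoma, 0.05 against ICI and 0.06 for the interaction, and 0 of 91 genes passed in each. In these 4 contrasts 72, 73, 70 and 68 of the 91 genes lay above 0, against 53.1%, 52.3%, 52.9% and 48.99% of all genes. Leaving out control replicate 4 alone gave -0.01 for ICI minus control and -0.01 for melanoma minus control, and it turned the median of melanoma plus ICI minus control to 0.13. Leaving out melanoma plus ICI replicate 1 alone gave 0.04 against melanoma and 0.04 against ICI. The interaction median was 0.17 without the former and 0.26 without the latter. The direction of melanoma plus ICI minus control also turned with the model: 77 of 91 genes lay above 0 with limma voom and quality weights (median 0.057), against 51.8% of all genes, and 57 with 4 tissue scores as covariates (median 0.019), against 50.2%. With limma voom the median was -0.05 for ICI minus control, with 66 genes below 0 against 47.9% of all genes, and -0.03 for melanoma minus control, with 71 below 0 against 47.1%. The interaction median was 0.14 with limma voom, with 84 of 91 above 0 against 47.8% of all genes. It was 0.41 with the 4 tissue scores, with 89 above 0 against 51.8%.

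**Figure D2:**
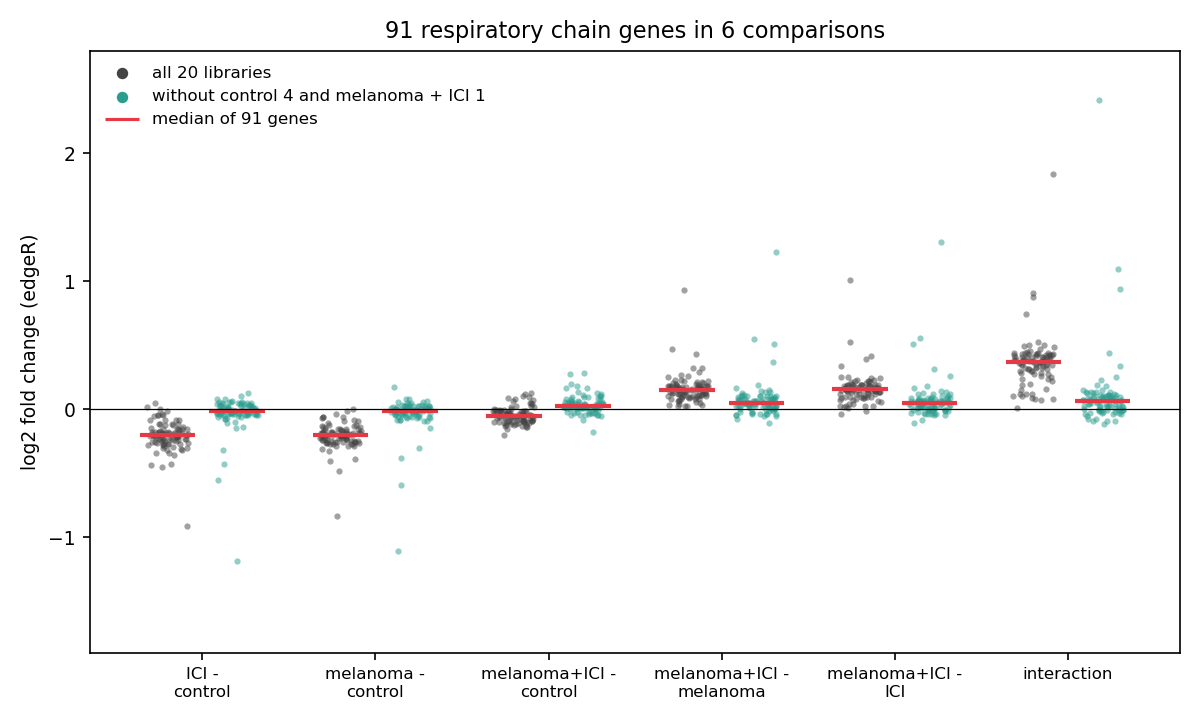
Log2 fold change from edgeR for each of the 91 genes in 5 contrasts and the interaction, with all 20 libraries (dark) and without control replicate 4 and melanoma plus ICI replicate 1 (green); red bars are medians. With all libraries the medians run from -0.20 to 0.37, and without the 2 libraries from -0.01 to 0.06.

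The 5 complexes moved together from library to library. Each gene was expressed as its log2 CPM minus its own median over the 20 libraries, and the median of these deviations was taken per complex. This was 0.78 for complex I, 0.64 for complex II, 0.79 for complex III, 0.79 for complex IV and 0.72 for complex V in control replicate 4. In melanoma plus ICI replicate 1 the same values were 0.49, 0.38, 0.45, 0.52 and 0.47. In the other 18 libraries the deviation over all members lay between -0.11, in ICI replicate 2, and 0.16, in melanoma plus ICI replicate 5. Control replicate 4 was the highest of all 20 libraries for 82 of the 91 genes. The library was set apart for its high values in these genes, so this count follows in part from that choice. The share over all genes was not counted. As a share of all counts, the 91 genes took 1.32% in control replicate 4, 1.17% in melanoma plus ICI replicate 1 and 0.798% to 0.962% elsewhere. Averaged over a group, that share was 0.957% ± 0.211 in control and 0.849% ± 0.0347 in ICI mice without a tumour (SD, n = 5 each). With a tumour it was 0.855% ± 0.0239 after isotype antibodies and 0.945% ± 0.134 after ICI. Without the 2 libraries the control and melanoma plus ICI averages were 0.865% ± 0.0549 and 0.889% ± 0.0540 (SD, n = 4 each), and the ranges of the 4 groups overlapped.

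**Figure D3:**
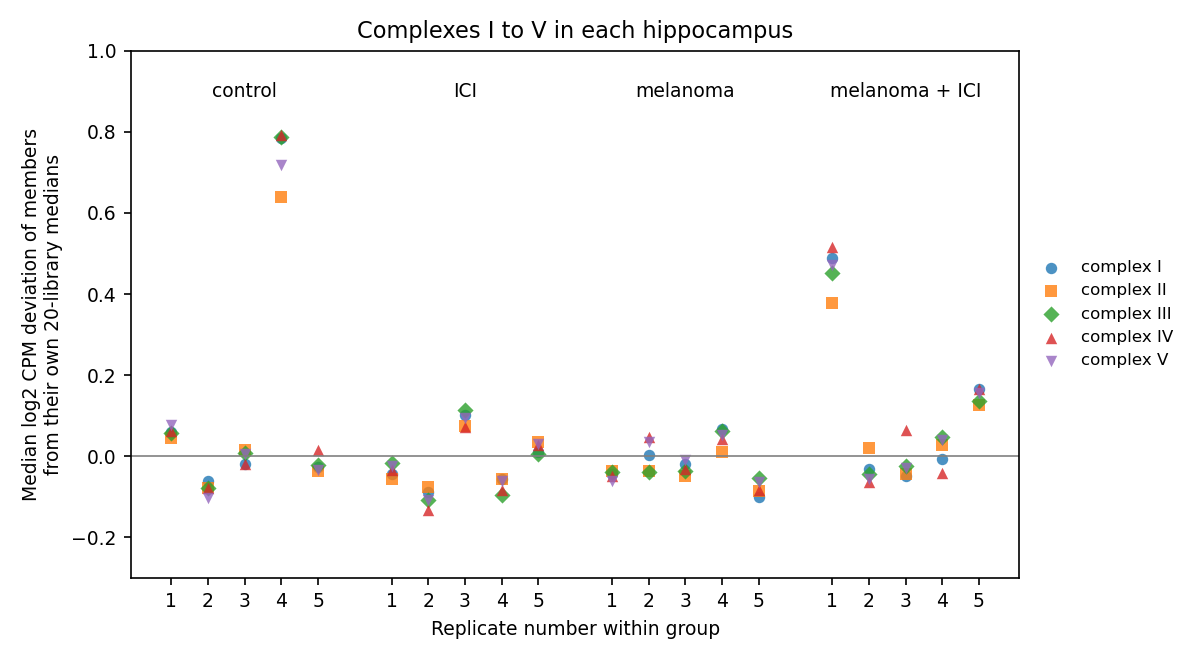
Median deviation of the genes of each complex (log2 CPM minus each gene's 20-library median) in every library, by group and replicate number. In control replicate 4 the complexes lie between 0.64 and 0.79 and in melanoma plus ICI replicate 1 between 0.38 and 0.52, and the other 18 libraries lie near 0.

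Within libraries the balance between complexes was steadier than the common level. The difference between complex V and complex I deviations lay between -0.07 and 0.05 over the 20 libraries, that between complex III and complex I between -0.04 and 0.05, and that between complex IV and complex I between -0.05 and 0.11. Complex II differed from complex I by -0.14 in control replicate 4 and -0.11 in melanoma plus ICI replicate 1, its lowest values. Sdha did not share the elevation of the other members there. In the 18 other libraries the median SD of log2 CPM of the members was 0.10, against 0.14 for the median of 10153 other protein-coding genes at 10 CPM or more.

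Complex I core genes show the pattern gene by gene. Ndufv1, the NADH-binding subunit, read 168, 145, 156, 234 and 156 CPM in control replicates 1 to 5, and 157, 151, 170.4, 149 and 163 CPM in ICI. It read 151, 169.7, 155, 165 and 144 CPM in melanoma and 217, 149, 158, 149 and 172 CPM in melanoma plus ICI. The fourth control and the first melanoma plus ICI hippocampus were high, and the remaining animals of all groups overlapped. Ndufs1, which carries iron-sulfur clusters next to the NADH site, was flatter: 158 CPM and 161 CPM in the 2 libraries and 123 to 142 CPM in the others. Ndufs3 averaged 75.7 ± 19.5 CPM in control and 66.8 ± 4.62 in ICI, Ndufs7 81.2 ± 27.4 and 67.2 ± 8.46, and Ndufv2 96.4 ± 31.9 and 84.3 ± 3.97 (SD, n = 5 each). In each of these 3 genes the control SD was larger than the difference between the means. Ndufs4 averaged 36.5 ± 13.6 CPM in control and 32.8 ± 3.46 in ICI.

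Ndufs8, an iron-sulfur subunit of the arm that reduces quinone, had the smallest p of the members in melanoma minus control. It read 57.7, 49.3, 53.1, 87.2 and 51.3 CPM in control and 47.4, 49.4, 50.5, 54.2 and 48.2 CPM in melanoma. Control replicate 4 was far above the rest, and the other control values overlapped those of melanoma. The log2 fold change was -0.26 ± 0.13 (SE) and the adjusted p was 0.877 by edgeR's quasi-likelihood test, and it was -0.09 without the 2 libraries.

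Ndufa1, a small accessory subunit encoded on the X chromosome and needed for assembly of complex I, was the only member with an unadjusted p under 0.05 for ICI minus control. Control hippocampi read 28.6, 31.9, 29.8, 53.3 and 31.5 CPM, and ICI hippocampi 25.2, 24.7, 31.1, 28.7 and 28.4 CPM. The 2 groups overlapped, and control replicate 4 was far above all other values. The log2 fold change was -0.34 ± 0.15 (SE) and the adjusted p was 0.766 by edgeR's quasi-likelihood test, and it was -0.14 without the 2 libraries. Melanoma hippocampi read 25.98, 27.3, 28.5, 34.7 and 27.3 CPM, and melanoma plus ICI 40.2, 25.4, 29.3, 33.4 and 35.4 CPM. In the interaction Ndufa1 had a log2 value of 0.53 ± 0.22 (SE) with an edgeR adjusted p of 0.484, and 0.25 without the 2 libraries.

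Ndufaf6 and Ndufaf1, assembly factors of complex I, had the smallest p of the members in melanoma plus ICI minus melanoma. Ndufaf6, which is needed to build complex I, read 5.68, 4.91, 3.86, 5.09 and 5.90 CPM in melanoma and 5.63, 6.36, 6.12, 7.38 and 6.27 CPM in melanoma plus ICI. Of the 5 treated animals 4 lay above all 5 animals with melanoma alone. The log2 fold change was 0.32 ± 0.13 (SE) and the adjusted p was 0.825 by edgeR, and it was 0.37 without the 2 libraries, so it was as large without them. Control hippocampi read 5.37, 5.32, 4.83, 7.56 and 5.91 CPM and ICI hippocampi 5.23, 6.18, 5.14, 5.02 and 5.82 CPM, which overlap both tumour groups. Ndufaf1, a chaperone for the membrane arm of complex I, read 15.8, 15.5, 14.5, 14.0 and 13.8 CPM in melanoma and 21.2, 16.7, 17.5, 15.9 and 16.9 CPM in melanoma plus ICI. All 5 treated values lay above all 5 melanoma values, by a narrow margin (15.9 against 15.8 CPM). Ndufaf6 and Ndufaf1 were named for their small p in this contrast, so such separation is not separate support. The share of all genes that separate in this way was not counted. The log2 fold change of Ndufaf1 was 0.26 ± 0.12 (SE) and the adjusted p was 0.825 by edgeR, and 0.19 without the 2 libraries. The 8 assembly factors together had a median of 0.16 in this contrast, against 0.11 for the core and 0.15 for the accessory subunits, and complex IV stood at 0.18. These medians were 0.068, 0.018, 0.039 and 0.068 without the 2 libraries. Ecsit, a complex I assembly factor outside the 91 genes, stood at -0.15 ± 0.07 (SE) in the same contrast, with an edgeR adjusted p of 0.825, and at -0.18 without the 2 libraries.

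In complex II, Sdha and its partners differed. Sdha read 485, 426, 464, 422 and 437 CPM in control and 479.6, 478, 443, 431 and 484 CPM in ICI. It read 450.0, 452, 423, 462 and 455 CPM in melanoma and 464, 469, 443, 478 and 486 CPM in melanoma plus ICI. The 4 groups overlapped throughout, and control replicate 4 had the lowest of the 20 values, where most members had their highest. Its log2 fold changes lay between 0.01 and 0.07 in the 5 contrasts, and the spread over the 18 other libraries was 0.07. Sdhc, a membrane anchor that binds ubiquinone, read 67.4, 65.2, 68.5, 107 and 70.5 CPM in control, and 61.4, 61.4, 73.0, 66.7 and 68.8 CPM in ICI. It read 65.5, 64.4, 66.2, 67.3 and 61.7 CPM in melanoma and 90.0, 71.6, 68.0, 72.0 and 76.6 CPM in melanoma plus ICI. All melanoma plus ICI values lay above all melanoma values, by a narrow margin (68.0 against 67.3 CPM). Sdhc was among the members with the smallest p in this contrast, so the separation is not separate support. The share of all genes that separate in this way was not counted. The log2 fold change was 0.22 ± 0.11 (SE) with an edgeR adjusted p of 0.825, and 0.15 without the 2 libraries. Sdhc had the smallest p of the members in the interaction, at 0.41 ± 0.16 (SE) and the adjusted p was 0.484 by edgeR, and 0.19 without the 2 libraries. Sdhb averaged 97.4 ± 29.1, 85.7 ± 5.53, 86.1 ± 3.22 and 94.2 ± 17.1 CPM and Sdhd 54.6 ± 11.4, 48.2 ± 2.71, 47.5 ± 2.31 and 51.6 ± 5.99 CPM in control, ICI, melanoma and melanoma plus ICI (SD, n = 5 each).

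In complex III, Uqcrfs1, whose iron-sulfur cluster passes electrons towards cytochrome c, read 74.1, 71.1, 74.7, 129 and 71.3 CPM in control and 69.1, 67.9, 69.2, 75.7 and 63.4 CPM in melanoma. Control replicate 4 was far above the other animals, and the other control and melanoma values overlapped. The log2 fold change was -0.28 ± 0.15 (SE) and the adjusted p was 0.877 by edgeR, and -0.08 without the 2 libraries. Uqcrc2 was among the least elevated members in control replicate 4, at 0.18 above the median of the other 18 libraries on the log2 scale, and Uqcrc1 stood at 0.40.

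In complex IV, Cox6a1 and Cox4i1 had the smallest p after Ndufa1 for ICI minus control. Cox6a1 read 199, 188, 195, 392 and 218 CPM in control, and 187, 165, 211, 185 and 185 CPM in ICI. It read 203, 207, 193, 215 and 182 CPM in melanoma and 281, 163, 208, 175 and 209 CPM in melanoma plus ICI. In control replicate 4 it lay 1.01 above the median of the other 18 libraries on the log2 scale, and without that library the groups overlapped. The log2 fold change for ICI minus control was -0.35 ± 0.17 (SE) and the adjusted p was 0.766 by edgeR, and -0.11 without the 2 libraries. Cox4i1 read 432, 353, 384, 727 and 417 CPM in control and 366, 355, 386, 360.4 and 391 CPM in ICI. Its log2 fold change was -0.32 ± 0.16 (SE) and the adjusted p was 0.766 by edgeR, and -0.10 without the 2 libraries. For melanoma plus ICI minus control the smallest p among members were those of Cox6a1 (-0.20 ± 0.17), Atp5g2 (-0.13 ± 0.12) and Sdha (0.07 ± 0.06), given ± SE, each with an edgeR adjusted p of 1.00. The first 2 of these turned to 0.05 and 0.04 without control replicate 4.

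In complex V, Atp5b, the catalytic beta subunit, was the most counted of the 91 genes. It read 1069, 907, 977, 1299 and 951 CPM in control, and 991, 972, 1013, 919 and 1004 CPM in ICI. It read 949, 989.8, 893, 995 and 948 CPM in melanoma and 1253, 928, 964, 937 and 1078 CPM in melanoma plus ICI. The same 2 libraries were highest, by less than in Cox6a1, and the others overlapped. Atp5a1 averaged 813 ± 88.1, 808 ± 33.3, 777 ± 29.9 and 830 ± 79.2 CPM in control, ICI, melanoma and melanoma plus ICI (SD, n = 5 each). Atp5c1 averaged 147 ± 38.4, 135 ± 5.83, 133 ± 4.84 and 144 ± 25.9 CPM in the same order. Atp5s and Sdhc had the smallest p after Cox7a1 for melanoma plus ICI minus ICI, at a log2 fold change of 0.23 ± 0.13 and 0.19 ± 0.11 (SE), with edgeR adjusted p of 0.608 and 0.610. The 2 values were 0.18 and 0.12 without the 2 libraries that stood apart, and 0.17 and 0.11 without melanoma plus ICI replicate 1 alone.

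In the 2 libraries that stood apart, shorter members were more elevated. Over the 83 members at 10 CPM or more, 82 lay above the median of the other 18 libraries in control replicate 4 and 83 in melanoma plus ICI replicate 1. Both libraries were set apart for high values in the members, and the share over all genes was not counted. In control replicate 4, the members with a main transcript under 800 nucleotides lay 0.88 above that median on the log2 scale, those of 800 to 1500 nucleotides 0.77, those of 1500 to 3000 nucleotides 0.49, and the 5 of 3000 or more 0.59. Across these 83 genes, as a description, elevation and log2 length had a Pearson r of -0.62 in control replicate 4 and -0.39 in melanoma plus ICI replicate 1. The genes share a library, and genes are not independent replicates. The elevations in the 2 libraries had an r of 0.85 across genes. Ndufb4, with a gap of 1.23, was the most elevated member in control replicate 4, and Sdha, at -0.12 with a main transcript of 2900 nucleotides, the least among abundant members.

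Other short transcripts in these libraries were elevated too. Protein-coding genes outside the list with a main transcript under 800 nucleotides had a median of 0.77 in control replicate 4 and 0.49 in melanoma plus ICI replicate 1, beside 0.88 and 0.54 for members of that length. Genes of 3000 nucleotides or more lay at -0.23 and -0.14, beside 0.59 and 0.42 for the 5 members of that length. The 81 cytosolic ribosomal protein genes had a median deviation of 0.77 and 0.46. The deviation of 5 red blood cell genes was 1.501 and 1.33, against -3.23 to 1.28 in the others, at low levels throughout (at most 21.6 CPM for Hbb-bs). That of 8 choroid plexus genes was -2.36 and -2.71, inside the range of the others. The 5 general neuron genes lay at 0.26 and 0.25, above the highest of the others at 0.21. Microglia genes lay at 0.30 and -0.12, against -0.09 to 0.13 in the others. Astrocyte genes lay at -0.19 and -0.14, against -0.14 to 0.10. RNA integrity values were not used here, and the part of transcript length or tissue makeup in the elevation was not tested. When a smooth trend of count on gene length was removed from each library, the medians over members were -0.14 for ICI minus control, -0.17 for melanoma minus control and 0.27 for the interaction, with 0 of 91 genes past the threshold.

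**Figure D4:**
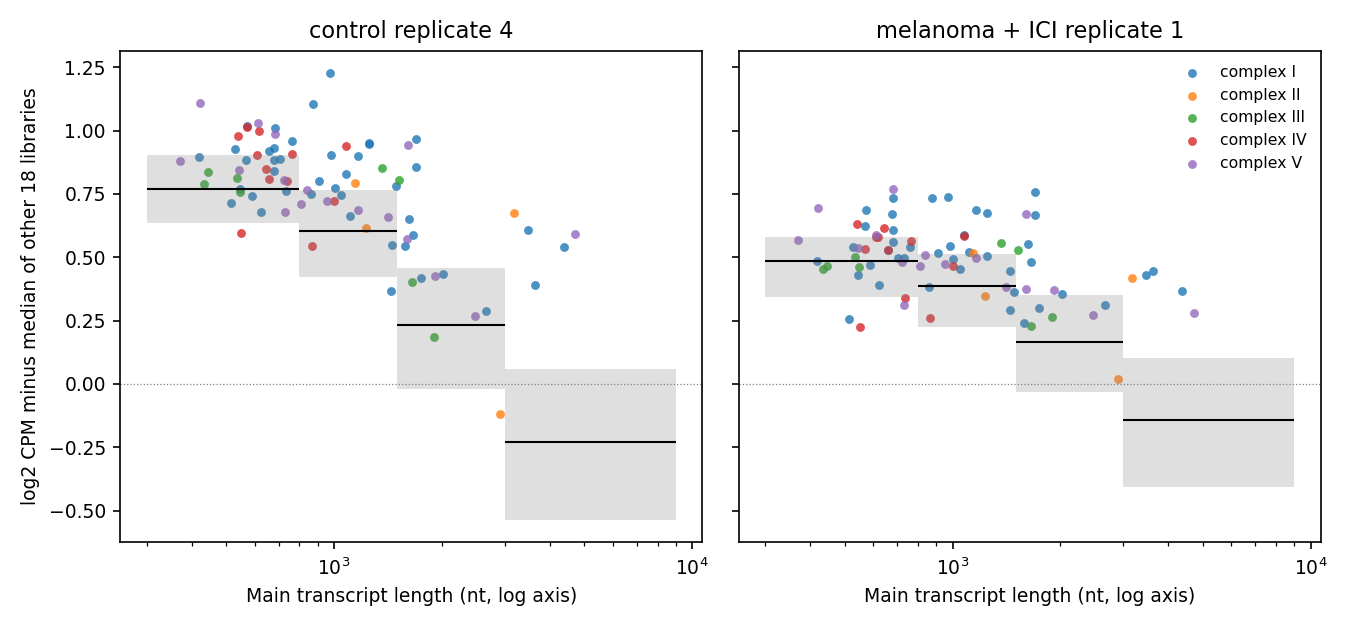
Log2 CPM of each member at 10 CPM or more in control replicate 4 (left) and melanoma plus ICI replicate 1 (right) minus its median in the other 18 libraries, against main transcript length on a log axis; black lines and grey bands are the median and quartiles of other protein-coding genes in 4 length bins. In the left panel members under 800 nucleotides centre on 0.88 and other genes of that length on 0.77.

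None of the other pathway genes listed here passed the test in any contrast, where 0% of all genes passed. The 13 protein-coding genes of the mitochondrial genome, which encode further subunits of complexes I, III, IV and V, had medians of -0.31 for ICI minus control, -0.27 for melanoma minus control and 0.49 for the interaction. Without the 2 libraries that stood apart these were -0.09, -0.04 and 0.17. Their deviation was 0.93 in control replicate 4 and 0.47 in melanoma plus ICI replicate 1. The 2 with the smallest p were mt-Nd2, at 0.50 ± 0.17 (SE) in the interaction with an edgeR adjusted p of 0.476, and mt-Nd6, at 0.84 ± 0.30 with the same adjusted p. Both were smaller without the 2 libraries, at 0.28 and 0.34. Cycs, which encodes cytochrome c, averaged 95.7 ± 22.7 CPM in control and 84.6 ± 5.32 in ICI, and Cyc1, the cytochrome c1 subunit of complex III, 109 ± 20.6 and 102.9 ± 7.43 (SD, n = 5 each). In the interaction Cycs and Cyc1 stood at log2 values of 0.36 and 0.25, and at 0.09 and 0.07 without the 2 libraries.

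The interaction medians of the assembly factor lists outside the Nduf names were smaller without the 2 libraries. In the interaction, where 52.8% of all genes lay above 0, 7 of 10 tested complex I assembly factors lay above 0 (median 0.12), as did 4 of 4 for complex II (0.39), 5 of 6 for complex III (0.19), 18 of 21 for complex IV (0.22) and 2 of 3 for complex V (0.18). Without the 2 libraries, when 48.99% of all genes lay above 0, the counts were 8 of 10 (median 0.10), 2 of 4 (0.0022), 4 of 6 (0.030), 16 of 21 (0.050) and 2 of 3 (0.024). Cox20, a chaperone for a mitochondrially encoded complex IV subunit, had the smallest p of the complex IV list, at 0.59 ± 0.24 (SE) in the interaction with an edgeR adjusted p of 0.484, and at 0.36 without the 2 libraries. Cox17, a copper chaperone for complex IV, averaged 21.2 ± 4.34 CPM in control and 17.7 ± 0.665 in ICI (SD, n = 5 each), a log2 fold change of -0.26 with an edgeR adjusted p of 0.766, and of -0.13 without the 2 libraries. Ecsit, Timmdc1, Sdhaf4, Sdhaf1, Uqcc1, Lyrm7, Tmem242 and Atpaf1 were the other leading assembly genes by p, with edgeR adjusted p between 0.484 and 1.00. Without the 2 libraries the interaction value went from 0.60 to 0.12 for Sdhaf4, from 0.37 to 0.15 for Lyrm7 and from 0.43 to 0.18 for Tmem242. Timmdc1 went from -0.25 to -0.13 for ICI minus control, and Sdhaf1 from -0.46 to -0.13 and Uqcc1 from -0.15 to -0.09 for melanoma minus control. Atpaf1 went from 0.11 to 0.06 for melanoma plus ICI minus control. The 13 enzymes of the TCA cycle, which feed NADH and succinate to the chain, had a median of 0.14 in the interaction with 10 above 0, and of 0.0048 with 8 above 0 without the 2 libraries. Idh3a led that list by p, at 0.19 ± 0.11 (SE) for melanoma plus ICI minus melanoma and an edgeR adjusted p of 0.825, followed by Suclg2, at 0.19 ± 0.11 against ICI. They stood at 0.12 and 0.21 without the 2 libraries.

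Regulators of respiratory genes were spread around 0. Among 14 genes for transcription factors and coactivators of mitochondrial biogenesis, 6 lay above 0 in the interaction and the median was -0.02; without the 2 libraries 4 lay above 0 and the median was -0.04. Their deviation was -0.11 in control replicate 4 and 0.03 in melanoma plus ICI replicate 1. Pprc1, a coactivator related to PGC-1alpha, had the smallest p, averaging 29.2 ± 6.21 CPM in control and 36.5 ± 3.20 in ICI (SD, n = 5 each), which is 0.32 ± 0.13 (SE) as a log2 fold change (edgeR adjusted p of 0.766) and 0.19 without the 2 libraries. Tfb1m, a methyltransferase of mitochondrial ribosomal RNA, stood at 0.54 ± 0.24 (SE) in the interaction with an adjusted p of 0.484, and at 0.30 without the 2 libraries.

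Promoters of the members were searched for letters bound by factors known to act on respiratory genes. RefSeq promoter windows (GRCm38.p6) from 250 bases before to 50 after the start were found for 73 of 91 members, giving 78 windows, and set beside 21263 windows of protein-coding genes, counting matches on both strands. The NRF1 palindrome of 10 letters, which stands in capitals in Cox6a1 and Atp5k, was in 8.97% of member windows and 1.33% of all windows. The ETS-type string CCGGAAG, bound by the NRF2/GABP factor, was in 23.1% and 11.6%. The YY1 string AAGATGGC was in 12.8% and 3.05%. At least 1 of these 3 strings was in 31 of the 78 member windows (39.7%), against 15.1% of all windows. For general promoter strings, TATAAA was in 8.97% of member windows and 12.6% of all windows. The string CCAAT was in 42.3% and 38.2%, and the GC box GGGCGG in 42.3% and 46.2%. These are matches of letters, not measured binding sites. The strings do not overlap each other in the sequences printed here.

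Windows of 4 members are printed, chosen because the results turn on the gene or the window carries 1 of the strings. They read 5′ to 3′ on the gene's strand with the NRF1, ETS and YY1 strings in capitals (CTTCCGG is CCGGAAG on the other strand). They start 250 bases before the RefSeq start and stop where no more than 30 bases of an annotated exon are covered. Cox6a1 (chr5:115348952-115349208, minus strand) has the NRF1 string beginning 162 bases and the ETS string 16 bases before the start. Atp5k (chr5:108434419-108434649, minus strand), for a membrane subunit of the ATP synthase, has the NRF1 string 50 bases before it. The searched window of Atp5k also holds an ETS string, at base 12 after the start, which lies beyond the printed stretch. Ndufa3 (chr7:3617123-3617402, plus strand), for an accessory subunit of complex I, has the YY1 string in its first transcribed bases. Cox8b (chr7:140900417-140900696, minus strand), a heart-type isoform, has none of the 3 strings in its window. Most member windows had none of them either, since 31 of 78 held at least 1. Whether the strings bear on how a gene varied between libraries was not tested. TATAAA, left in lower case, is in the windows of both Cox8b and Ndufa3.
Cox6a1: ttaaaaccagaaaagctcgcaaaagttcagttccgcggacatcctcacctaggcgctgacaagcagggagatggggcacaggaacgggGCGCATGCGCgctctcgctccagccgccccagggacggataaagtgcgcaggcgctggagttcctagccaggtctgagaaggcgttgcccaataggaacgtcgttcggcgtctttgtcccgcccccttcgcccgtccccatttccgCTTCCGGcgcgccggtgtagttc
Atp5k: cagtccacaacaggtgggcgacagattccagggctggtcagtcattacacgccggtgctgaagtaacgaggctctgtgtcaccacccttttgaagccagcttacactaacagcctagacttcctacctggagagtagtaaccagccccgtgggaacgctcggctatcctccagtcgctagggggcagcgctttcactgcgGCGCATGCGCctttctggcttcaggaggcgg
Ndufa3: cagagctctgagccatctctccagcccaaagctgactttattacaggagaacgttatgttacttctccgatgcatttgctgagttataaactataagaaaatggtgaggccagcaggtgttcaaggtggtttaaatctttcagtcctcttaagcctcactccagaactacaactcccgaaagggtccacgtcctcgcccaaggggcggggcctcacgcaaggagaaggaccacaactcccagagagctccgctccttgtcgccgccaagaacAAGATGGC
Cox8b: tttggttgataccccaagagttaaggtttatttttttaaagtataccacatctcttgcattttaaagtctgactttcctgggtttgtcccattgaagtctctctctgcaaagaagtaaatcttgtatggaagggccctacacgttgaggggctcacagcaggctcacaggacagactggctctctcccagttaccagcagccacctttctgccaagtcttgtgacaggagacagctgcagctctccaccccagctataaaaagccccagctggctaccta

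Many members also share their start region with a neighbour. In the GENCODE M21 annotation, 21 of 91 members (23.1%) had another protein-coding gene starting within 1000 bases on the opposite strand and pointing away, against 8.72% of 15089 other protein-coding genes that met the same count minimum. The starts of Ndufa7 and the ribosomal protein gene Rps28 were 29 bases apart, those of Sdha and Ccdc127 29 bases, and those of Sdhd and Timm8b, an import chaperone of mitochondria, 98 bases. Chromosome 7 held the most members, 9 of them.

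The rare tissue isoforms of complex IV varied most between animals of a group. The pooled SD of log2 CPM within groups was 1.42 for Cox8b, 0.59 for Cox6a2, 0.51 for Cox6b2, 0.48 for Cox4i2 and 0.40 for Cox7a1, against 0.23 for the median member. Their medians were 0.942 CPM for Cox8b, 2.85 for Cox6a2, 3.78 for Cox6b2 and 0.686 for Cox4i2. Cox8b had 2 to 97 counts a library and Cox4i2 9 to 33, while Cox6a2 had 31 to 138 and Cox6b2 43 to 192.

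Cox8b varied with choroid plexus markers. Cox8b read 0.196, 3.79, 1.41, 0.277 and 2.01 CPM in control, and 0.0858, 0.441, 1.14, 0.988 and 1.42 CPM in ICI. It read 0.631, 0.128, 0.563, 2.29 and 0.694 CPM in melanoma and 0.164, 0.896, 1.20, 3.83 and 2.14 CPM in melanoma plus ICI. All 4 groups spanned low and high animals and overlapped, and control replicate 4 and melanoma plus ICI replicate 1 were among the low ones. Over the 20 libraries, log2 Cox8b and the mean log2 CPM of 8 choroid plexus genes had a Pearson r of 0.94 and a Spearman rho of 0.94, each with a permutation p of 1e-05, the smallest that 100000 permutations can give, and adjusted p of 0.00048 and 0.00032 over 96 relations of 6 isoforms with 16 marker lists. The r was 0.92 without the 2 libraries farthest from the median score, and 0.93 without the 2 libraries that stood apart. In the same way Cox6b2 and the choroid plexus score had r = 0.74 and rho = 0.82, with permutation p of 0.00014 and 1e-05 and adjusted p of 0.00269 and 0.00032, and r was 0.69 without the 2 farthest libraries.

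Cox6a2 varied with neocortex markers. Cox6a2 read 5.41, 1.32, 2.64, 4.66 and 3.86 CPM in control, and 2.92, 2.47, 2.33, 1.36 and 4.27 CPM in ICI. It read 2.52, 3.50, 2.77, 1.53 and 3.21 CPM in melanoma and 5.13, 2.77, 3.41, 2.09 and 3.51 CPM in melanoma plus ICI, so the groups overlapped. With the mean of 5 neocortex genes it had r = 0.85 and rho = 0.92, each with a permutation p of 1e-05 and adjusted p of 0.00048 and 0.00032, and r was 0.93 without the 2 farthest libraries. With 4 genes of parvalbumin interneurons, fast-spiking cells with high energy use, it had r = 0.75 and rho = 0.75, permutation p of 0.00011 and 0.00024 and adjusted p of 0.00264 and 0.00461, and r was 0.80 without the 2 farthest libraries. With the 3 tested genes of the striated muscle list it had r = 0.87 and rho = 0.84, permutation p of 2e-05 and 4e-05 and adjusted p of 0.00064 and 0.00096, and r was again 0.87 without the 2 farthest. The other 3 genes of that list, Ckm, Myl2 and Actc1, which define muscle, were near 0, with medians of 0.299, 0.154 and 0.0450 CPM. These 5 relations were those with an adjusted p under 0.05 for Pearson's r. Whether these isoforms are expressed in the marked cells was not tested.

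**Figure D5:**
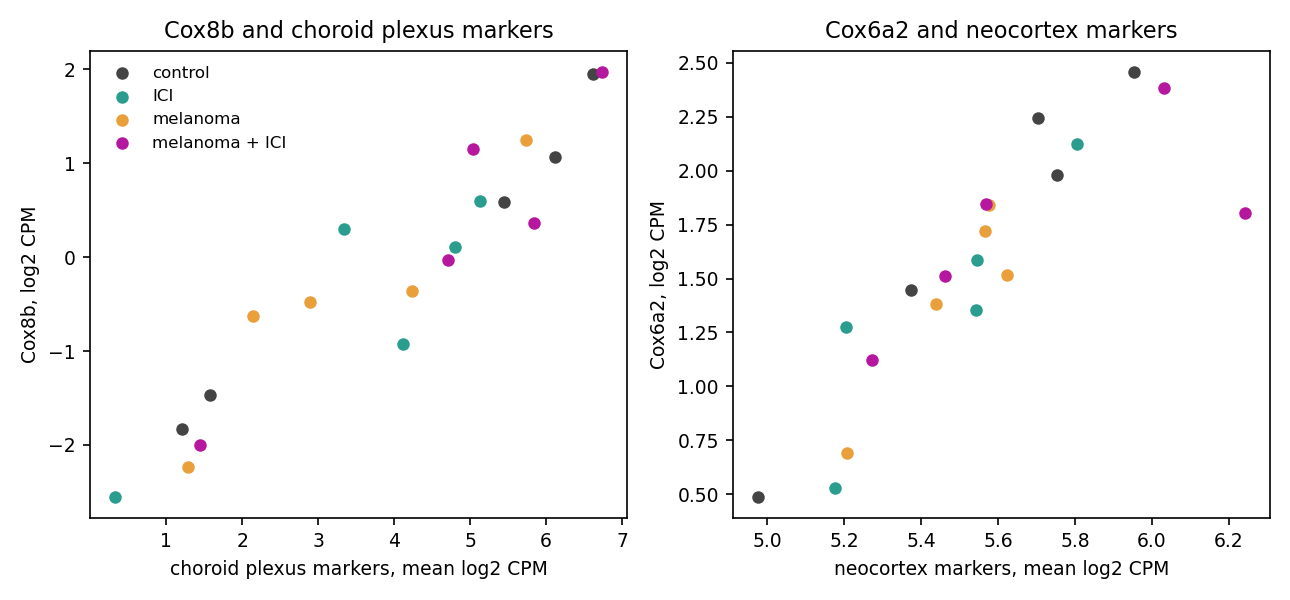
Left, log2 CPM of Cox8b against the mean log2 CPM of 8 choroid plexus genes; right, log2 CPM of Cox6a2 against that of 5 neocortex genes. Each point is 1 library, coloured by group, and the 4 groups are mixed along both trends, with Pearson r of 0.94 and 0.85.

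Cox7a1, a heart-type form of subunit 7a, had the smallest p of the members for melanoma plus ICI minus ICI. ICI hippocampi read 0.987, 0.883, 0.762, 1.19 and 1.33 CPM and melanoma plus ICI hippocampi 1.35, 0.896, 1.78, 1.86 and 1.56 CPM, and the groups overlapped. The log2 fold change was 0.53 ± 0.27 (SE) and the adjusted p was 0.580 by edgeR, and 0.56 without the 2 libraries. Control hippocampi read 0.823, 1.79, 0.820, 1.48 and 2.09 CPM and melanoma hippocampi 0.883, 0.939, 1.30, 1.10 and 1.13 CPM. Its log2 value in the interaction was 0.91 ± 0.38 (SE) and the adjusted p was 0.484 by edgeR, and 0.94 without the 2 libraries. None of its relations with the 16 marker lists passed the adjustment. The largest r was with oligodendrocyte genes, at 0.52 with a permutation p of 0.0197 and an adjusted p of 0.158, and rho was 0.50, with p of 0.0266 and an adjusted p of 0.174. The r was 0.40 without the 2 farthest libraries. With the choroid plexus score r was 0.48, with a permutation p of 0.0344 and an adjusted p of 0.180, and rho was 0.52, with p of 0.0214 and an adjusted p of 0.174. The order of these 2 lists turned without the 2 libraries that stood apart, where r was 0.62 with choroid plexus and 0.50 with oligodendrocyte genes.

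The 2 genes linked to low oxygen did not pass the test. Cox4i2 read 1.06, 0.553, 0.410, 1.34 and 0.574 CPM in control and 1.11, 0.693, 1.28, 0.790 and 0.400 CPM in melanoma plus ICI. Ndufa4l2 read 2.12, 1.40, 2.10, 3.18 and 2.09 CPM in control and 2.34, 1.43, 2.79, 1.97 and 1.65 CPM in melanoma plus ICI. In both genes the groups overlapped. Both are known from pericytes, and their r with 6 mural cell genes was 0.06 and 0.14, with permutation p of 0.815 and 0.552 and rho of 0.01 and 0.10, with p of 0.978 and 0.675. The adjusted p of these 4 values lay between 0.729 and 0.988. The mural cell r changed sign to -0.21 and -0.33 without the 2 libraries farthest from the median score. Without the 2 libraries that stood apart they were 0.27 and 0.39. For both genes the largest r was with neocortex genes, and it did not pass the adjustment. It was 0.61 for Cox4i2, with a permutation p of 0.00445 and an adjusted p of 0.0712, and rho was 0.54, with p of 0.0152 and an adjusted p of 0.168. It was 0.48 for Ndufa4l2, with a permutation p of 0.0337 and an adjusted p of 0.180, and rho was 0.50, with p of 0.0258 and an adjusted p of 0.174. Without the 2 libraries farthest from the median score, r was 0.51 and 0.26, so the relation of Ndufa4l2 rests on those libraries.

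Counts of some members may hold reads of a neighbour. Ndufa4l2 overlaps Shmt2 on the opposite strand by 30 bases, and Shmt2 had 1106% of its counts. Ndufb2, Atp5d and Ndufaf3 overlap Braf, Cbarp and Impdh2, which had 298%, 280.3% and 179.7% of their counts. Whether the counting used strand, and how it treated reads shared with the 11 processed pseudogenes that carry member names, is not given in the sources used here.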

How the data were processed

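The deposited files hold whole-number counts per gene for 20 libraries, with gene length and annotation columns. Per the submitters' processing notes, STAR 2.5.2b and DESeq2 1.16.1 were used, with no role given; the counting tool, its use of strand and its treatment of multiply mapping reads are not given in the sources used here. The gene identifiers were matched to GENCODE M21. The members and all gene lists were chosen with earlier results of these data known.

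From the counts, genes were filtered with filterByExpr (minimum count 10, minimum total 15), which left 18427 genes, and scaled by TMM (factors 0.955 to 1.04). A quasi-likelihood model of edgeR 4.0.16 (R 4.3.3) with 4 group means was fitted to all 20 libraries, with 5 contrasts between groups and the interaction, and p-values were Benjamini-Hochberg adjusted over all genes at a threshold of 0.05. The model was also run on counts simulated from the mean levels and dispersions of these data, and the outcome is not given here. CPM was computed per 1000000 TMM-scaled counts, log2 CPM with a prior count of 2, and TPM from the deposited gene length. Each hippocampus was 1 replicate, and totals of 21990624 to 25735149 counts limit the precision of genes near 1 CPM.

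Named members were those past the threshold, the 3 with the smallest p per contrast, core and catalytic subunits, isoform pairs, the highest and lowest per length in each complex, and the 5 with the largest spread within groups. A core gene is not reported here. For other pathway lists, the 2 genes with the smallest p were named. Alternatives were DESeq2 1.42.0, limma 3.58.1 voom with quality weights, other scaling and filters, only the groups compared, a replicate block, removal of a length trend, 4 tissue scores as covariates, and leaving out libraries. Levels per main transcript length were added after seeing the data. Correlations used SciPy 1.17.1 and NumPy 2.4.6.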

Additional observations from a re-analysis of the deposited data

Results flagged for a closer look

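In each group of 5 animals, the highest and lowest value of 27 measures were compared with the gap to their nearest neighbour, divided by the range of the group. Of all groups tested, 20 exceeded the critical value of 0.71, which chance exceeds in about 1 of 20 groups, and 16 of the 20 were control replicate 4. The measures are not independent of each other.

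In control replicate 4 the members took 1.32% of counts, and the next control library 0.933%. Its median log2 deviation was 0.77 over all members, 0.78 for complex I, 0.64 for complex II, 0.79 for complex III, 0.79 for complex IV and 0.72 for complex V. Single genes far above the other controls there were Ndufv1 at 234 CPM, Ndufs8 at 87.2 CPM, Ndufa1 at 53.3 CPM, Ndufb5 at 103.05 CPM and Ndufaf1 at 22.8 CPM in complex I. Sdhc at 107 CPM, Uqcrfs1 at 129 CPM, Cox4i1 at 727 CPM and Cox6a1 at 392 CPM stood out in the same library. What set this library apart was not tested.

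The other 4 cases were scattered. Melanoma replicate 4 had a complex III deviation of 0.061, with the next at -0.04, and 2.29 CPM of Cox8b, with the next at 0.694 CPM. Ndufa4l2 was low in ICI replicate 2, at 1.103 CPM beside a next value of 1.85 CPM, and in melanoma replicate 5, at 1.30 CPM beside 1.78 CPM.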

How the results depend on the processing

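In each of the settings run, 0 of the 91 genes passed the threshold in each contrast, where 0% to 0.255% of all genes passed. The most were 47 genes with DESeq2 in the interaction, 25 and 19 with limma voom, against melanoma and in the interaction, and 12 against melanoma without melanoma plus ICI replicate 3. The median of the members in the interaction, 0.37 with all libraries, was 0.41 with 4 tissue scores as covariates, 0.14 with limma voom and quality weights and 0.065 without control replicate 4 and melanoma plus ICI replicate 1; the cause was not tested. Leaving out 1 library at a time gave medians of -0.27 to -0.01 for ICI minus control, -0.27 to -0.01 for melanoma minus control, -0.16 to 0.13 for melanoma plus ICI minus control, 0.04 to 0.19 against melanoma, 0.04 to 0.20 against ICI and 0.17 to 0.44 for the interaction, with 0 to 0 genes past the threshold. For melanoma plus ICI minus control, Cox6a1 ran from -0.35 without melanoma plus ICI replicate 1 to 0.048 without control replicate 4, and Atp5g2 from -0.22 to 0.038 without the same libraries. The replicate numbers did not pair the animals: correlations of same-numbered libraries ran from -0.35 to 0.53 and 6 of 20 libraries were closest to their own number. With the replicate block the interaction median was 0.34 and ICI minus control -0.18. Ratios of levels between complexes move with the transcript length used. Isoforms near 1 CPM rest on few counts.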
